A study of Mus musculus with 12 samples.

Results

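Cultured macrophages and whole liver of mice of the same control genotype were set against each other in 6 of the 12 libraries of the study. These were the 3 libraries of bone-marrow-derived macrophages (BMDMs) and the 3 of livers that the labels give as Tshr f/f, taken by tissue and genotype label alone, with no measured value used. Tshr f/f mice carry loxP sites in Tshr, the gene of the thyrotropin (TSH) receptor, and no Cre, and were the controls for littermates in which Lyz2-Cre, a Cre driven from the lysozyme 2 gene of myeloid cells, was added. The 6 Lyz2-Cre libraries, 3 per tissue, served here only as alternatives. All mice were male C57BL/6N. The BMDMs came from the marrow of mice that the labels give as 6 weeks old and the study's methods as 6 to 8 weeks old, were grown for 7 days with M-CSF at 10 ng/mL and then received TSH at 1 ng/mL for 24 hours. The livers came from mice put on a high-fat diet at 6 weeks of age for 9 weeks, fasted for 8 hours and given insulin at 1.5 U/kg in vivo 5 minutes before they were killed. Tissue, culture, age, diet, fasting and the hormone given therefore change together, and their parts in any difference cannot be told apart. There was no BMDM library without TSH and no liver without the diet or insulin.

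A whole liver is mostly hepatocytes, which make the plasma proteins, build and burn fat, store and release glucose, make urea and bile acids, and modify drugs and toxins. It also holds resident macrophages (Kupffer cells), sinusoidal endothelium, stellate cells, bile duct cells and blood. BMDMs are macrophages grown from marrow progenitors by M-CSF acting on its receptor. They take up and digest particles in lysosomes, sense microbes with Toll-like receptors, present antigen, and secrete cytokines when activated through NF-κB. Between bulk samples, fewer cells of a type and less RNA per cell cannot be told apart.

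The values are read counts per gene. The BMDM libraries held 40138912, 39207620 and 35285791 counts and the livers 33168714, 34664636 and 29044366. Levels of 1 gene in the 2 tissues are given as CPM, read counts relative to library size after scaling by TMM factors, and levels of different genes in 1 tissue as TPM, counts per kilobase of exon set to 1 fixed total per library. Differences are log2 of BMDM over liver ± SE from edgeR's quasi-likelihood test, and a gene was called higher in a tissue at a Benjamini–Hochberg adjusted p under 0.05 with a fold of at least 2. A gene was called similar where the 95% interval of its difference lay inside a fold of 2 either way. A gene with at most 3 counts in each library of a tissue is given a lower bound of its fold against 3 counts per library, a floor that covers counting error only.

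Before the results, doubts about the libraries are given. A supplementary table of the study lists the counts of the 3 livers labelled Tshr f/f under the heading of the knockout and those of the livers labelled Lyz2-Cre under the control, and Tshr, with 0, 0 and 2 counts in BMDMs and 0, 0 and 0 in liver, cannot settle it. The results were therefore also computed with the other 3 livers. BMDM replicate 3 stood apart: among the 631 detected genes whose BMDM libraries spanned more than 4-fold it was the highest in 417, and its TMM factor was 1.045 against 1.397 and 1.59. Likewise, liver replicate 1 was the lowest in 348 of the 427 genes that spanned more than 4-fold between livers. By the same measure BMDM replicate 2 was the lowest in 355 of the BMDM genes and liver replicate 2 the highest in 312 of the liver genes. Results are given without BMDM replicate 3 and liver replicate 1 where that changed them. The study's methods give n = 3 per group for both tissues, but the labels number the samples without naming the mouse of each. The p-values set each difference against the spread between these samples, part of which may be technical.

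The marker genes fitted the tissue labels. Lyz2 (ENSMUSG00000069516, chr10:117277331-117282321, minus strand, GRCm38), which encodes the lysozyme of myeloid cells, had 6307, 6900 and 6202 CPM in BMDMs and 35.7, 79.3 and 59 CPM in liver, a difference of 6.80 ± 0.42 (edgeR adjusted p = 5.51e-05). Csf1r, the M-CSF receptor, had 1474, 1153 and 1096 CPM in BMDMs and 63.2, 175 and 123 CPM in liver (3.37 ± 0.43, adjusted p = 0.000873). Alb (ENSMUSG00000029368, chr5:90460897-90476602, plus strand) and Apoa1 (ENSMUSG00000032083, chr9:46228580-46230466, plus strand) encode serum albumin and the main protein of high-density lipoprotein. Neither had a single count in the BMDM libraries. Alb reached 58770, 92260 and 64820 CPM in liver, at least 1180000-fold higher, and Apoa1 13400, 14740 and 12740 CPM, at least 223000-fold higher. Thus the hepatocyte markers were not detected in the BMDMs, whereas the macrophage markers were present in the livers at levels below those of the cultures.

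Of 15931 genes tested, 3796 (23.8%) were higher in BMDMs and 4556 (28.6%) higher in liver, 2902 (18.2%) were similar, and 4677 met none of these rules. A fold under 2 with an adjusted p under 0.05 was found for a further 1749 genes, so 10101 genes (63.4%) differed at some size. In 11699 genes (73.4%) all libraries of a tissue lay above all of the other. The median difference of all genes tested was −0.05, and the shares above are the background against which each gene group below is read. Scaling by library totals alone, with no TMM factors, moved that median to 0.78 and the share of calls that were higher in BMDMs from 45.5% to 67.9%. With the TMM factors, 16-fold or larger differences were held by 1071 of the genes higher in BMDMs and 1900 of those higher in liver.

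The 2 tissues differed in how their RNA was spread over genes. Genes higher in liver took 74.6–77.3% of all liver counts, and genes higher in BMDMs took 49.5–60.1% of BMDM counts. The similar genes took 9.80–10.6% of liver and 15.6–21.1% of BMDM counts. By TPM the 100 highest genes made up 61.0% of the liver transcriptome and 37.2% of that of BMDMs, and 22 genes were in both lists; of the 1000 highest genes 324 were shared. At 1 CPM or more in each library, 11486 genes were detected in BMDMs, 12184 in liver and 10161 in both.

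**Figure D1:**
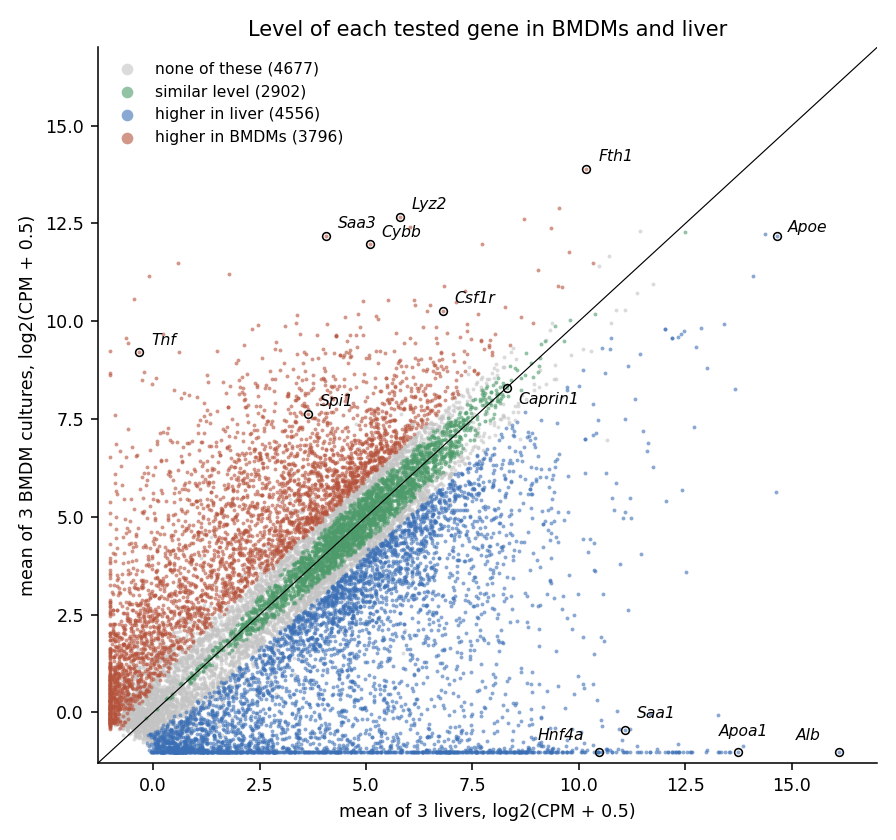
Mean level of each tested gene in the 3 Tshr f/f BMDM libraries (y axis) against the 3 Tshr f/f livers (x axis), both as log2 of TMM-scaled CPM + 0.5, coloured by call. Macrophage markers such as Lyz2 lie above the diagonal, Alb and Apoa1 lie at the floor of the BMDM axis, and the 2902 similar genes lie along the diagonal.

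Genes detected in 1 tissue alone were more frequent, and far more abundant, in liver. With at least 1 CPM in each library of a tissue and at most 3 counts in each library of the other, 666 genes were found in liver alone and 111 in BMDMs alone. A whole liver also holds macrophages, so genes such as Lyz2 and Csf1r, detected in every liver, cannot count as BMDM genes alone. The floor of 3 counts differed too, at 0.0482–0.0814 CPM in BMDMs and 0.109–0.131 CPM in liver. The part of either in these numbers was not tested. The 666 liver genes held 29–30.1% of all liver counts. The 111 BMDM genes held 0.196–1.23% of BMDM counts, the highest share in replicate 3. The largest liver differences by the fitted value, among genes with at least 50 CPM, were those of Alb, Apoa1, Cyp2e1, Serpina1e, Fga, Fgb, Pzp, Ahsg, Mug1 and Fgg, and all 10 had 0 counts in the BMDM libraries. 8 of them are proteins secreted into plasma besides Apoa1, among them the 3 chains of fibrinogen and the protease inhibitors of the alpha-2-macroglobulin family. The exception is Cyp2e1, a cytochrome P450 that oxidises ethanol, with 13540, 12260 and 9923 CPM. The 10 on the BMDM side were Ptgs2, Slc7a11, Serpinb2, Csf3, Cxcl3, Nos2, Acod1, Cxcl2, Clec4e and Ly6i, most of them genes of activated macrophages.

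The 10 BMDM genes were not equally steady. Acod1, which makes itaconate, had 1500, 645 and 3670 CPM in BMDMs and 0.0873, 0.438 and 0.219 CPM in liver (12.88 ± 1.13, adjusted p = 0.000218). Ptgs2, the inducible cyclooxygenase, had 318, 113 and 6249 CPM in BMDMs and 0 counts in liver, at least 18000-fold higher, or 1740-fold without replicate 3. Nos2, the inducible nitric oxide synthase, had 293, 330 and 4630 CPM against 0, 0 and 0.569 CPM. Each gene was well above liver in every BMDM library, but replicate 3 held most of the mean of Ptgs2 and Nos2. Csf3, which encodes the granulocyte growth factor, had 10.0, 5.84 and 617 CPM, so that 1 library carried nearly all of it, and without any 1 of the livers it was no longer called.

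The promoters of genes that mark each class are shown to give the sequence context of the strongest contrasts. They are 3 plasma protein genes found in liver alone, 2 macrophage genes and the serum amyloid pair that the tissues divide between them. The last is Caprin1, the most equal gene under the TMM factors among those with at least 100 CPM. Each run is the 250 bases before the gene's start in RefSeq (GRCm38.p6), written 5′ to 3′ on the strand of the gene. RefSeq starts can differ from those of the annotation used for the counts. The window of Caprin1 lies wholly inside the gene of that annotation (chr2:103762941-103797649, minus strand), past its start there. Capitals mark matches on either strand to 1 of 12 short motifs, and no match says only that the letters are not in this window.
Alb, chr5:90460620-90460869, plus strand: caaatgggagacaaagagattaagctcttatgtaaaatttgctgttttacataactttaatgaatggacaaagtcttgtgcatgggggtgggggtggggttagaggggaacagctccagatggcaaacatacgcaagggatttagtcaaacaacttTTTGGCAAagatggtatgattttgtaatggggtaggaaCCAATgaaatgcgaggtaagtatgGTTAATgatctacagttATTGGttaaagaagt
Serpina1a, chr12:103863620-103863869, minus strand: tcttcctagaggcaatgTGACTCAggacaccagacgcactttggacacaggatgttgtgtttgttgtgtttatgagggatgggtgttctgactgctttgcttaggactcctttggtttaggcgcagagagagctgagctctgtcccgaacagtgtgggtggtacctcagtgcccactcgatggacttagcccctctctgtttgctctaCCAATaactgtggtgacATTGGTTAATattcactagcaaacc
Fga, chr3:83025903-83026152, plus strand: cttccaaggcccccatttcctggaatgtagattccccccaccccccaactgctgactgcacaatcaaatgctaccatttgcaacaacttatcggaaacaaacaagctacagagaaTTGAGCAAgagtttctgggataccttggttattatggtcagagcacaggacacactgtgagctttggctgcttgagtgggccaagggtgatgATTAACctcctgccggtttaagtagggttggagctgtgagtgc
Lyz2, chr10:117282273-117282522, minus strand: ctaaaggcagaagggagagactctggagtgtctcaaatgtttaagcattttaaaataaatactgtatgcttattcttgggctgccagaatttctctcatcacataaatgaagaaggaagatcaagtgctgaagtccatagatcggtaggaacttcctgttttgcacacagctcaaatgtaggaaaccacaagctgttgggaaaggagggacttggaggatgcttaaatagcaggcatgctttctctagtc
Cybb, chrX:9469325-9469574, minus strand: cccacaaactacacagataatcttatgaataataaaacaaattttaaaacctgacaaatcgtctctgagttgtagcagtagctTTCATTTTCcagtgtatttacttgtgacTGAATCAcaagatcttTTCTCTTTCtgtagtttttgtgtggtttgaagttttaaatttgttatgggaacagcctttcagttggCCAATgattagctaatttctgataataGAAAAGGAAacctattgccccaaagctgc
Saa1, chr7:46742981-46743230, minus strand: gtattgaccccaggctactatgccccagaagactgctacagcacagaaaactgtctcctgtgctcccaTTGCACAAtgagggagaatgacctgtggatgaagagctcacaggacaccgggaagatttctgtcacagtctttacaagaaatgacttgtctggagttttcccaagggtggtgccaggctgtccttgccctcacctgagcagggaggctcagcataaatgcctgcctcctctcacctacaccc
Saa3, chr7:46715677-46715926, minus strand: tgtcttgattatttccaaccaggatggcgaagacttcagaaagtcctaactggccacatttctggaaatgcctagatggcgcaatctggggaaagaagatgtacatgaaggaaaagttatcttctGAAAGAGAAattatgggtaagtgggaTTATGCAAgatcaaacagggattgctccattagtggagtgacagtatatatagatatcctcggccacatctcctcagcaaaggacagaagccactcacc
Caprin1, chr2:103797079-103797328, minus strand: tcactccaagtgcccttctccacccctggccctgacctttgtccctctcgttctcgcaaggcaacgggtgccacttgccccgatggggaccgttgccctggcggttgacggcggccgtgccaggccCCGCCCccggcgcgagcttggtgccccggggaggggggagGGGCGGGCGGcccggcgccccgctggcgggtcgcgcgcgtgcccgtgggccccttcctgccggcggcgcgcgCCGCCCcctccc

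The HNF1 half-site GTTAAT, named for a transcription factor of hepatocytes, was found in the windows of Alb, Serpina1a and Fga. In Serpina1a it overlapped a match to the CCAAT box. Of 27025 RefSeq promoters of this length, 6.52% held it. The C/EBP site TTGCNNAA (9.55% of promoters) lay in Alb, Fga, Saa1 and Saa3, genes that fall on both sides of the comparison. The IRF site GAAANNGAA (7.16%) lay in Cybb and Saa3, and the AP-1 site TGANTCA (6.87%) in Cybb and Serpina1a. Alb, Serpina1a and Cybb held the CCAAT box CCAAT (34.5%). The window of Caprin1 had a GC content of 78.0% and held the GC box GGGCGG (32.9%). The Lyz2 window held none of the 12, the others being the HNF4 site CAAAGTCCA (0.381%), the PU.1 site GAGGAAGT (2.44%), the ETS core AGAGGAA (8.65%), TATAAA (13%), the E-box CACGTG (6.05%) and the NRF1 core GCGCATGCG (1.49%).

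Genes of macrophage identity were higher in BMDMs as a group. Of 25 tested, 23 were higher in BMDMs and 1 in liver, with a median difference of 4.77. Cd68, a lysosomal glycoprotein of macrophages, had 877, 668 and 839 CPM against 9.73, 40.3 and 17.6 CPM (5.14 ± 0.61, adjusted p = 0.000664). Adgre1, which encodes F4/80, had 826, 892 and 1086 CPM against 13.9, 51.9 and 31.9 CPM (4.84 ± 0.55, adjusted p = 0.000552). Gpnmb, a glycoprotein of lipid-laden and lysosome-rich macrophages, had 4057, 2504 and 2281 CPM against 0.873, 1.39 and 0.831 CPM (11.47 ± 0.51, adjusted p = 3.18e-05). The tissues did not overlap in these genes, and liver replicate 1 was the lowest liver in Cd68 and Adgre1. Mrc1, the mannose receptor, had 89.8, 37.6 and 49.6 CPM in BMDMs and 15.6, 47.8 and 48.5 CPM in liver and was not called (0.66 ± 0.51, adjusted p = 0.295), although it was higher in BMDMs among the Lyz2-Cre libraries (2.82).

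Transcription factors and surface receptors of myeloid cells followed. Of 20 myeloid transcription factors tested, 13 were higher in BMDMs, 2 in liver, Hhex among them, and 1 was similar, with a median of 2.82. Spi1, which encodes PU.1, had 226, 141 and 244 CPM against 7.68, 22.3 and 10.1 CPM (3.93 ± 0.50, adjusted p = 0.000852). Cebpb was the similar one, with 38.7, 34.2 and 76.8 CPM against 64.7, 39.7 and 58.0 CPM (−0.12 ± 0.36). It encodes a factor used by both macrophages and hepatocytes, and among the Lyz2-Cre libraries it was higher in liver (−1.79). Its relative Cebpa was higher in liver, with 47.2, 49.4 and 19.8 CPM against 391, 264 and 377 CPM (−3.15 ± 0.41, adjusted p = 0.00101). Of 28 genes of Fc receptors, phagocytosis and integrins, 23 were higher in BMDMs and 0 in liver (median 4.29). Cybb, the catalytic subunit of the phagocyte oxidase, whose promoter is printed above, had 3944, 2454 and 6559 CPM against 16.8, 69.2 and 32.9 CPM (6.77 ± 0.77, adjusted p = 0.000561). The lowest BMDM library lay far above the highest liver.

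The machinery that carries out phagocytosis was likewise higher in the cultures. All but 2 of 34 genes of the actin cytoskeleton and cell movement (32) were higher in BMDMs, with a median of 3.02. Of 39 lysosomal genes 25 were higher in BMDMs, 1 in liver and 4 were similar (median 1.61), and of 19 subunits of the proton pump of lysosomes 11, 1 and 2 (median 1.28). Ctsd, an aspartic protease of lysosomes, had 6708, 6818 and 5410 CPM against 376, 456 and 423 CPM (3.92 ± 0.25, adjusted p = 5.84e-05). The exception on the liver side was Smpd1, the acid sphingomyelinase (−1.65 ± 0.30, adjusted p = 0.0034). Ctsl and Lamp2, lysosomal like the rest, were not called, and Lamp2 read 521, 345 and 580 CPM against 759, 664 and 674 CPM (−0.54 ± 0.26, adjusted p = 0.108). By TPM the highest genes of BMDMs were Lyz2, Fth1, Ctss, Ftl1, B2m, mt-Co1, Psap, Ctsd, Apoe and Saa3, of which Ctss, Psap and Ctsd are lysosomal. Fth1 and Ftl1 encode the 2 ferritin chains, and only the heavy chain differed by more than 2-fold. Fth1 had 12550, 14250 and 19830 CPM against 1177, 1138 and 1154 CPM (3.75 ± 0.28, adjusted p = 0.000112), whereas Ftl1 had 5057, 4408 and 5813 CPM against 3103, 2238 and 2994 CPM (0.87 ± 0.25, adjusted p = 0.0201).

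Cell cycle genes were higher in BMDMs in 29 of 39, higher in liver in 0 and similar in 5 (median 2.53). Mki67, a protein of dividing nuclei, had 182, 104 and 424 CPM against 5.50, 7.59 and 2.89 CPM (5.47 ± 0.70, adjusted p = 0.000914). Top2a, the topoisomerase of dividing cells, was steady between cultures, with 41.7, 45.7 and 45.7 CPM against 3.97, 3.94 and 2.06 CPM (3.74 ± 0.29, adjusted p = 0.000129). Ccnd1, a G1 cyclin, was not called, with 13.8, 3.77 and 6.11 CPM against 9.77, 29 and 34.3 CPM (−1.63 ± 0.63, adjusted p = 0.0616), but was called higher in liver without BMDM replicate 1 (−2.30) or liver replicate 1 (−2.01).

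**Figure D2:**
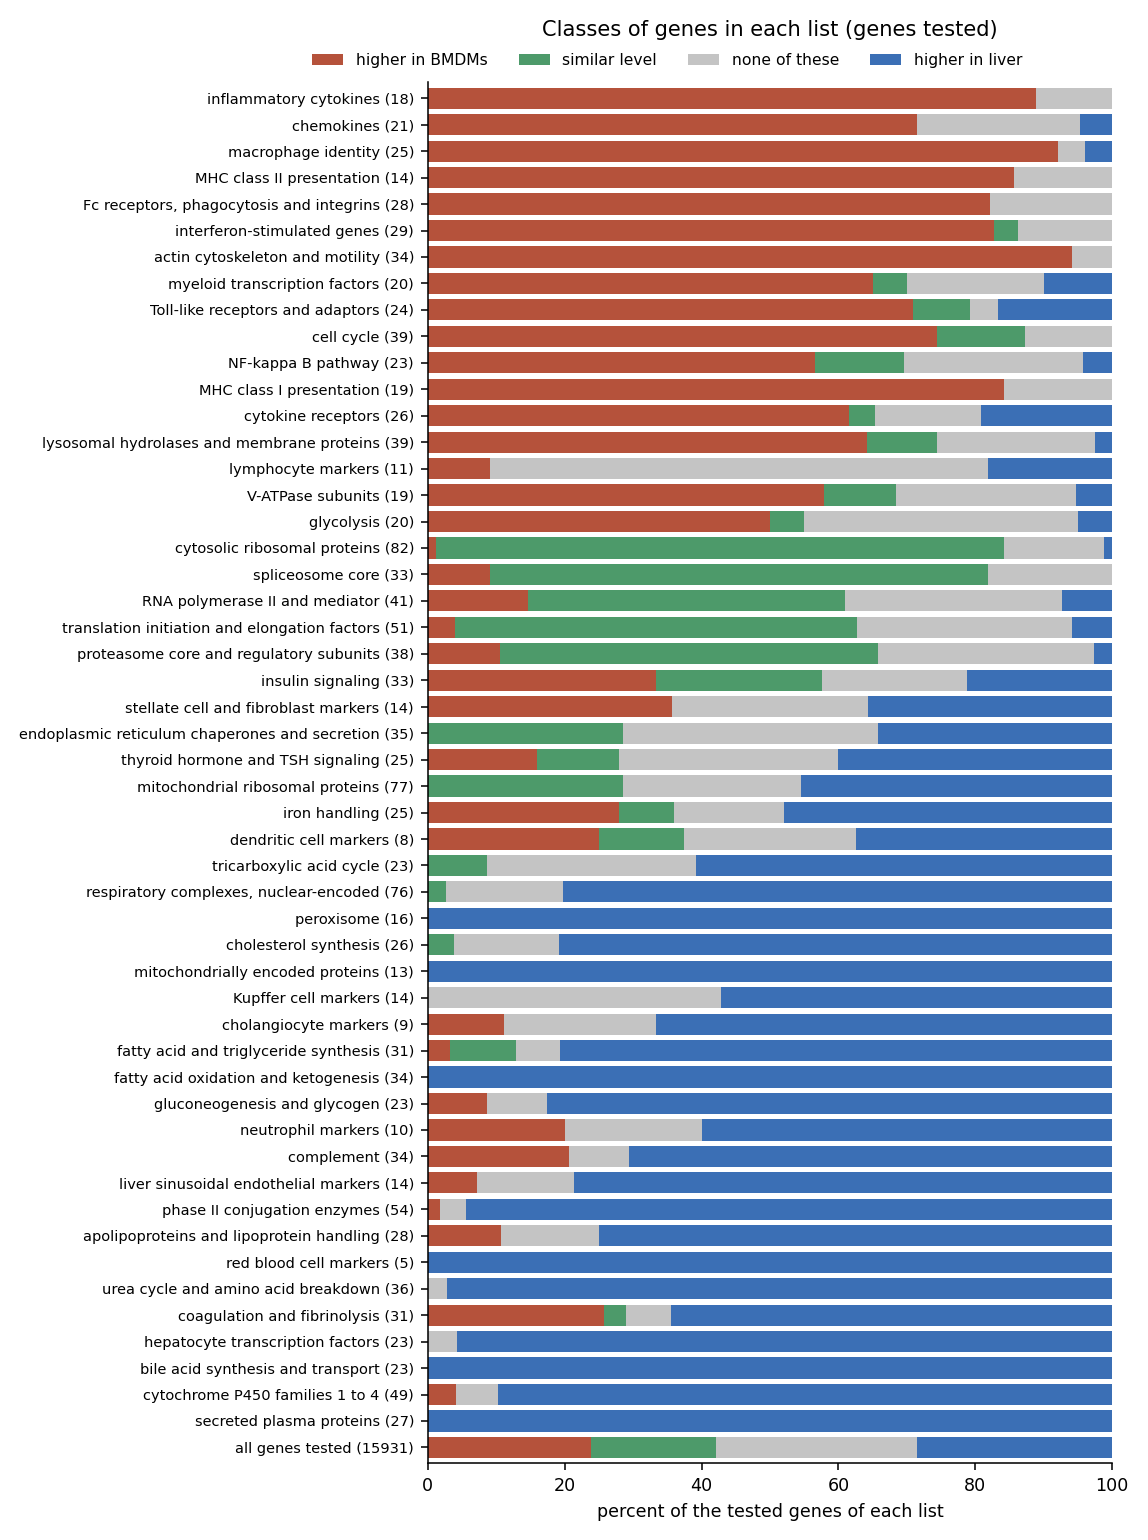
Share of the tested members of each gene list that was higher in BMDMs, similar, in none of the classes, or higher in liver. The x axis is the percent of the tested members. The same shares over all 15931 genes are drawn for comparison, and the list of muscle and adipocyte markers is left out. Lists of hepatocyte metabolism are almost wholly higher in liver, lists of macrophage function mostly higher in BMDMs, and lists of the translation and splicing machinery mostly similar.

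Inflammatory genes were far higher in the TSH-treated BMDMs than in the livers, and several of them were among the genes with the widest range between cultures. Of 18 inflammatory cytokines 16 were higher in BMDMs and 0 in liver (median 7.53, or 7.27 with genes at the floor set to their bound). Tnf had 692, 64.8 and 4554 CPM against 0, 0.839 and 0.262 CPM (12.18 ± 2.28, adjusted p = 0.00416). Il1b, one of the pair of interleukin-1 agonists, had 154, 317 and 4200 CPM against 8.07, 17 and 10.2 CPM (7.05 ± 1.53, adjusted p = 0.0075). Il6, the cytokine that drives the acute phase in hepatocytes, had 41.7, 17.7 and 1028 CPM against 0.131, 0.328 and 0 CPM (11.11 ± 2.33, adjusted p = 0.00644). Replicate 3 was the highest BMDM library for all 3, and the lowest BMDM library was still above the highest liver. In the Lyz2-Cre libraries of both tissues 14 of the list could be tested and 10 were higher in BMDMs (median 2.69), and Il1b (1.40) and Il6 (1.42) were not called there. Without BMDM replicate 3 and liver replicate 1 the number was 13 and the median fell to 5.45.

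Of 21 chemokines 15 were higher in BMDMs and 1 in liver (median 5.11). The liver gene was Cxcl12, which retains blood cell precursors in their niches, with 22.7, 23.7 and 15 CPM in BMDMs and 442, 347 and 410 CPM in liver (−4.29 ± 0.27, adjusted p = 5.92e-05). Among 24 Toll-like receptors and their adaptors 17 were higher in BMDMs, 4 in liver and 2 were similar (median 2.58). Tlr4, the receptor of bacterial lipopolysaccharide, had 100, 121 and 84.8 CPM against 1.35, 4.38 and 2.32 CPM (5.24 ± 0.48, adjusted p = 0.000244). The liver genes were Tlr5, Tlr12, Ticam1 and Lbp. Lbp, the plasma protein that passes lipopolysaccharide to Tlr4 through Cd14, had 0.303, 0.706 and 1.06 CPM against 509, 193 and 263 CPM (−8.88 ± 0.72, adjusted p = 0.000163). Of 23 genes of the NF-κB pathway 13 were higher in BMDMs, 1 in liver (Chuk, a kinase of the pathway) and 3 were similar (median 2.48, or 1.15 with 6 similar between the Lyz2-Cre libraries). Nfkb1 had 249, 134 and 796 CPM against 31.4, 51.8 and 39.3 CPM (3.27 ± 0.70, adjusted p = 0.00725), and Rela, its partner, 110, 58.6 and 173 CPM against 57.4, 55.8 and 54.2 CPM, which missed the threshold (1.03 ± 0.38, adjusted p = 0.0519) but met it without BMDM replicate 2 (1.35).

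Interferon-stimulated genes were higher in BMDMs in 24 of 29, with 0 higher in liver and 1 similar (median 3.30). Ifit1, an antiviral protein, had 244, 23.9 and 464 CPM against 8.07, 20.9 and 15.9 CPM (4.02 ± 1.05, adjusted p = 0.0152). In Ifit1, BMDM replicate 2 was barely above the highest liver, and Isg15, a ubiquitin-like protein, followed the same order with 164, 15.9 and 387 CPM against 5.67, 9.30 and 8.88 CPM (4.57 ± 1.10, adjusted p = 0.0111). Without liver replicate 1 or 3 Ifit1 was no longer called (3.73 and 4.07). Without liver replicate 3 the count was 15 of 29, and without BMDM replicate 3 and liver replicate 1 it was 12, with a median of 2.63. Between the Lyz2-Cre libraries 21 were higher in BMDMs, 1 in liver and 5 were similar, with a median of 1.49.

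Antigen presentation was also higher in BMDMs, with 16 of 19 genes of the MHC class I route (0 in liver, median 2.39) and 12 of 14 of the class II route (0 in liver, median 4.53). The class I chains were abundant in both tissues. H2-K1 had 2714, 2004 and 3679 CPM against 1351, 1474 and 1414 CPM, a difference just under 2-fold (0.99 ± 0.28, adjusted p = 0.0205) that passed it without BMDM replicate 1 or 2 (1.02 and 1.19). Tap1, the peptide transporter, had 304, 177 and 445 CPM against 32.5, 35.8 and 37.2 CPM (3.13 ± 0.37, adjusted p = 0.000648). In class II, H2-Aa had 992, 231 and 520 CPM against 14.2, 36.4 and 25.1 CPM (4.53 ± 0.68, adjusted p = 0.00167). In the Lyz2-Cre libraries 10 of the 19 class I genes were higher in BMDMs, and H2-T22, called higher in BMDMs here (1.23 ± 0.24, adjusted p = 0.00451), stood at −0.04. Reads of the H2 genes can be split between near-identical copies, so the values of single members are uncertain.

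On the liver side, the list of proteins secreted into plasma was higher in liver throughout. All 27 tested were higher in liver, with a fitted median of −16.81 (−15.41 with genes at the floor set to their bound), and 16 of them were found in liver alone. They took 14.9–16.9% of liver counts and 0.0418–0.0763% of BMDM counts. Trf, which encodes transferrin, the iron carrier of plasma, had 69.2, 21.7 and 79.8 CPM in BMDMs and 37080, 19580 and 22610 CPM in liver (−8.86 ± 0.75, adjusted p = 0.000182). Hp, haptoglobin, the scavenger of free hemoglobin, had 248, 198 and 581 CPM against 25170, 7513 and 11510 CPM (−5.43 ± 0.72, adjusted p = 0.00107). Both were thus detected in every BMDM library. Ttr, which carries thyroid hormone and retinol-binding protein, had 0 counts in BMDMs and 4017, 4580 and 3828 CPM in liver, at least 67800-fold higher. By TPM the highest liver genes were Alb, mt-Co1, Apoe, Apoa1, mt-Cytb, Hp, Gm10925, Trf, mt-Atp6 and mt-Nd2. Gm10925 is annotated as an unprocessed pseudogene of chr1. It had 5193, 6199 and 4838 CPM in liver, near the 4979, 5937 and 4644 CPM of mt-Atp6. Whether mitochondrial reads were counted for it was not tested.

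Of 23 transcription factors of hepatocytes 22 were higher in liver and 0 in BMDMs (median −11.76, or −9.38 with bounds). Hnf4a, the nuclear receptor that defines the hepatocyte programme, had 0 counts in BMDMs and 1459, 1264 and 1579 CPM in liver, at least 23500-fold higher. Nr1h4, the bile acid receptor, had 0.768, 0.241 and 0.380 CPM against 166, 146 and 161 CPM (−8.40 ± 0.50, adjusted p = 5.21e-05). Zhx2, a repressor of fetal liver genes, was the one not called, with 8.05, 7.74 and 65.6 CPM against 24.1, 19.6 and 22.1 CPM. Without BMDM replicate 3 it too was higher in liver (−1.46).

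Amino acid, bile acid and drug metabolism belonged to liver with few exceptions. Of 36 genes of the urea cycle and amino acid breakdown 35 were higher in liver and 0 in BMDMs (median −10.11). Cps1, the entry enzyme of the urea cycle, had 0 counts in BMDMs and 5225, 4494 and 4294 CPM in liver, at least 76500-fold higher. The gene not called was Arg1, arginase, the last enzyme of the cycle and also an enzyme of alternatively activated macrophages. It had 33.4, 1494 and 37.2 CPM in BMDMs and 2130, 1327 and 1490 CPM in liver (−1.66 ± 1.44, adjusted p = 0.347), so that BMDM replicate 2 alone reached the level of liver, and without that library Arg1 was called higher in liver (−5.54). All 23 genes of bile acid synthesis and transport were higher in liver (median −13.63, or −10.26 with bounds). Cyp7a1, the rate-limiting enzyme of bile acid synthesis, had 0 counts in BMDMs and 92.3, 121 and 154 CPM in liver, at least 2010-fold higher. Of 49 tested cytochrome P450 genes of families 1 to 4, 44 were higher in liver (median −14.32, or −11.03 with bounds), and 2, Cyp1b1 and Cyp4f16, were higher in BMDMs. Cyp1b1, which acts on steroids and aromatic hydrocarbons, had 104, 136 and 123 CPM against 0.305, 1.35 and 1.71 CPM (6.75 ± 0.60, adjusted p = 0.000229). Of 54 conjugating enzymes 51 were higher in liver and 1 in BMDMs (median −7.82, or −6.79 with bounds). Both lists hold closely related copies whose reads can be split.

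Fat metabolism was more graded. All 34 genes of fatty acid oxidation and ketogenesis were higher in liver (median −4.60). Cpt1a, which admits fatty acids into mitochondria, had 101, 63.3 and 52.1 CPM against 1313, 921 and 1203 CPM (−3.99 ± 0.35, adjusted p = 0.000213). It was expressed in both tissues. Of 31 genes of fatty acid and triglyceride synthesis 25 were higher in liver, 1 in BMDMs (Scd2) and 3 were similar (median −4.50). Acly, which supplies acetyl-CoA to this route, was similar at 147, 157 and 134 CPM against 142, 161 and 109 CPM (0.09 ± 0.20), whereas Fasn, fatty acid synthase, had 29.5, 32.4 and 28.2 CPM against 265, 313 and 177 CPM (−3.07 ± 0.26, adjusted p = 0.000179). Of 26 cholesterol synthesis genes 21 were higher in liver, 0 in BMDMs and 1 was similar (median −2.73). The similar gene was Srebf2, the transcription factor of the route, with 95, 75.8 and 149 CPM against 117, 101 and 80.7 CPM (0.10 ± 0.29).

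Lipoprotein genes fell mostly on the liver side, with 21 of 28 higher in liver and 3 in BMDMs (median −9.14). Apob, the core protein of very-low-density lipoprotein, had 0 counts in BMDMs and 7256, 5237 and 6832 CPM in liver, at least 106000-fold higher. Apoe was among the highest genes of both tissues, with 7529, 1818 and 7434 CPM in BMDMs and 25110, 26250 and 25330 CPM in liver (−2.19 ± 0.55, adjusted p = 0.0134). The 3 genes higher in BMDMs were Lpl, which releases fatty acids from lipoproteins, Apobec1, which edits the Apob transcript, and Abca1, which exports cholesterol. Abca1 was close to the threshold, with 213, 492 and 627 CPM against 226, 198 and 163 CPM (1.18 ± 0.41, adjusted p = 0.044), and between the Lyz2-Cre libraries its difference was −0.08. Its call was kept only without BMDM replicate 1 among the fits that left out a library, and that of Lpl was lost without BMDM replicate 1 (1.39) or liver replicate 1 (2.03) or 3 (2.17). Apobec1 was lost without liver replicate 1 or 3 (1.92 in both). Without BMDM replicate 3 and liver replicate 1, 1 gene of this list was higher in BMDMs.

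Complement and coagulation genes lay on both sides. Of 34 complement genes 24 were higher in liver and 7 in BMDMs (median −5.66, or −5.33 with bounds). The 7 were the 3 chains of C1q, properdin (Cfp) and the receptors C3ar1, C5ar1 and Itgam. The 24 included C3, Hc and the components C6 to C9 of the membrane attack complex, and also Cd59a, an inhibitor on cell membranes, while Cfb, a plasma component, was not called. C3 had 2176, 1556 and 3539 CPM in BMDMs and 26240, 10980 and 18000 CPM in liver (−2.93 ± 0.48, adjusted p = 0.00236). C3ar1, its receptor for the cleaved fragment, had 423, 339 and 112 CPM against 2.27, 6.78 and 3.81 CPM (6.08 ± 0.72, adjusted p = 0.000675). C1qb had 750, 241 and 448 CPM against 46.8, 140 and 80.05 CPM (2.43 ± 0.57, adjusted p = 0.0102). Of 31 genes of coagulation and fibrinolysis 20 were higher in liver, 8 in BMDMs and 1 was similar (median −10.30). Among the 8 were tissue factor (F3), F13a1, the inhibitor Tfpi, the activators Plat and Plau, and the receptors Plaur and Procr. F2, prothrombin, had 0 counts in BMDMs and 2495, 2115 and 2073 CPM in liver, at least 36500-fold higher. Besides F3 and F13a1, 2 clotting factors of the list were not higher in liver. F7 was similar, with 70.0, 97.1 and 83.9 CPM against 114, 92.6 and 87.7 CPM (−0.23 ± 0.19), and F10 was not called, with 300, 258 and 1024 CPM against 649, 488 and 495 CPM (−0.05 ± 0.56) but was higher in liver among the Lyz2-Cre libraries (−2.27). F3 lost its call without any 1 of the livers (2.84–2.97), and Tfpi without any library but liver replicate 2 (0.97–1.53).

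Iron handling was divided in the same way, with 7 of 25 genes higher in BMDMs, 12 in liver and 2 similar (median −0.95). Hamp, the hormone hepcidin, had 0 counts in BMDMs and 238, 113 and 523 CPM in liver, at least 4770-fold higher, or 2870-fold without replicate 3. Its target Slc40a1, the iron exporter, was higher in liver as well (5.78, 2.34 and 19.6 CPM against 82.0, 152 and 159 CPM, −3.83 ± 0.83, adjusted p = 0.00723). Hmox1, which breaks down heme, had 533, 1032 and 2539 CPM against 33.7, 47.2 and 31.8 CPM (5.19 ± 0.68, adjusted p = 0.000967).

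Among the lists read, those of transcription, splicing, translation and the proteasome held the highest shares of similar genes. Of 82 cytosolic ribosomal protein genes 68 were similar, against 18.2% of all genes tested, with 1 higher in each tissue (Rps15a in BMDMs, Rps27l in liver) and a median of 0.32. Rps6 had 277, 271 and 279 CPM against 272, 268 and 262 CPM (0.04 ± 0.17). Of 33 core spliceosome genes 24 were similar (median 0.31), of 51 translation factors 30 (median 0.01), of 38 proteasome subunits 21 (median −0.13) and of 41 subunits of RNA polymerase II and mediator 19 (median 0.07). These counts rest on the scaling: with library totals alone 5 ribosomal protein genes were similar and 54 were higher in BMDMs. The proteasome members that were higher in BMDMs were Psmd10 and the 3 interferon-inducible catalytic subunits, Psmb8, Psmb9 and Psmb10. Psmb8 had 273, 216 and 322 CPM against 27.8, 37.9 and 31.1 CPM (3.07 ± 0.24, adjusted p = 0.000127). The 10 most equal genes with at least 100 CPM, under the TMM factors, were Caprin1, Cct3, Nisch, Rpn2, Serf2, Eif4h, Acp5, Cct8, Arid5b and Usp47. Caprin1, a protein of RNA granules, had 315, 243 and 402 CPM against 340, 274 and 345 CPM (0.00 ± 0.25). This equality rests on the scaling as well, since the mean TPM of Caprin1 was 128 in BMDMs and 54.6 in liver. Cct3 and Cct8 encode subunits of 1 chaperonin and had 106, 96.5 and 131 CPM against 121, 93.8 and 118 CPM, and 127, 117 and 156 CPM against 143, 126 and 136 CPM. Acp5, the tartrate-resistant phosphatase of macrophages and osteoclasts, was equal by this measure while most of its fellow lysosomal genes were higher in BMDMs.

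**Figure D3:**
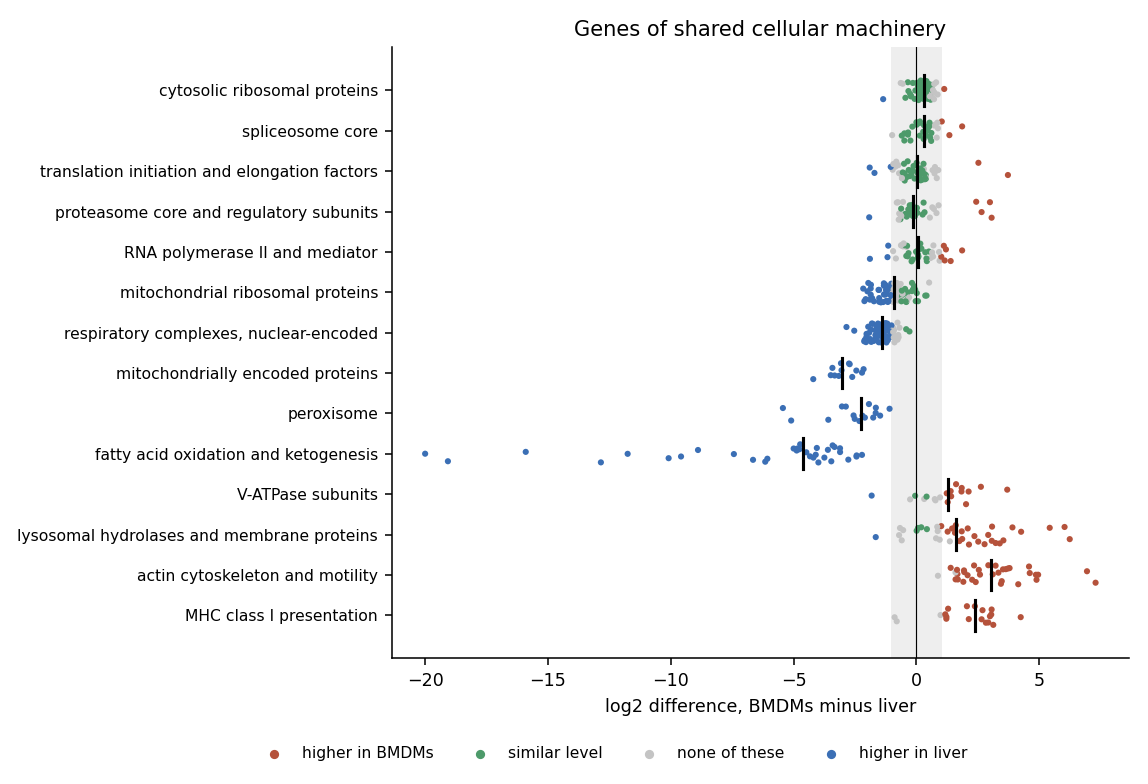
Difference of each tested member of lists of cellular machinery (x axis, log2 of BMDM over liver, 1 point per gene, coloured by call). The bar is the list median, and a fold of 2 either way is shaded. Lists cover transcription, splicing, translation, the proteasome, mitochondria, peroxisomes and fatty acid oxidation. Those of lysosomes and their proton pump, the actin cytoskeleton and MHC class I presentation are also shown. Cytosolic ribosomal proteins, splicing and translation factors centre near 0, whereas respiratory complexes and mitochondrially encoded genes lie on the liver side.

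With the TMM factors, mitochondrial genes lay on the liver side. None of 76 nuclear genes of the respiratory complexes was higher in BMDMs, 61 were higher in liver and 2 were similar (median −1.39). All 13 mitochondrially encoded protein genes were higher in liver (median −3.05), and these genes took 5.37–6.66% of liver and 1.20–1.92% of BMDM counts. Of 77 mitochondrial ribosomal protein genes 35 were higher in liver, 0 in BMDMs and 22 were similar (median −0.90). Ndufa4 had 23.1, 20.3 and 24.9 CPM against 183, 158 and 150 CPM (−2.85 ± 0.17, adjusted p = 5.15e-05), and Atp5a1, a subunit of the ATP synthase, 340, 340 and 289 CPM against 1046, 1025 and 1007 CPM (−1.67 ± 0.19, adjusted p = 0.000583). In the tricarboxylic acid cycle 14 of 23 genes were higher in liver and 2 were similar (median −1.37). One of these was Cs, citrate synthase, with 118, 125 and 128 CPM against 150, 140 and 130 CPM (−0.18 ± 0.15). With library totals alone 11 of the 76 respiratory genes and 5 of the 23 cycle genes were higher in liver. Of the 77 mitochondrial ribosomal protein genes 5 were then higher in liver and 3 in BMDMs (median −0.06). All 13 mitochondrially encoded genes were still higher in liver (median −2.19). All 16 peroxisomal assembly genes tested were higher in liver (median −2.26), but 11 with library totals alone (median −1.44). In the endoplasmic reticulum 12 of 35 chaperones and secretion factors were higher in liver and 10 were similar (median −0.79, but 0.07 with library totals alone). Without BMDM replicate 3 and liver replicate 1 the similar ones numbered 18.

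Many enzymes existed in both tissues as different members of a family. Of 38 families of related genes examined, 25 were led by another member in each tissue by TPM, and 15 of these had members called in both directions. In BMDMs pyruvate kinase was Pkm, with Pklr at 0 counts, and in liver Pklr made up 76.2%. The glucose transporters examined (Slc2a1, Slc2a2 and Slc2a6) showed the same split. Slc2a6 and Slc2a1 made up 55.6% and 44.4% of them in BMDMs, and Slc2a2 88.1% in liver. Their part in glucose entry was not tested. For glycogen synthase (Gys1 and Gys2) and phosphoenolpyruvate carboxykinase (Pck2 and Pck1) the first named led in BMDMs and the second in liver, each with 98.3% or more of its family in that tissue. Gys1 lost its call without liver replicate 2 or 3 (2.11 and 2.01).

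The glucose pathway lists went in opposite directions. Of 20 glycolysis genes 10 were higher in BMDMs, 1 in liver and 1 was similar (median 1.24). Hk2 had 185, 186 and 489 CPM against 2.05, 9.26 and 3.02 CPM (5.90 ± 0.82, adjusted p = 0.00123). Ldha, lactate dehydrogenase, was the gene higher in liver, with 256, 753 and 517 CPM against 2989, 1444 and 2683 CPM (−2.22 ± 0.49, adjusted p = 0.00793), and Gapdh was similar (770, 1669 and 1241 CPM against 1391, 1286 and 1282 CPM, −0.11 ± 0.31). Among the Lyz2-Cre libraries Gapdh was higher in liver (−1.07). Without BMDM replicate 2, 4 glycolysis genes were higher in liver, and between the Lyz2-Cre libraries 6 were. Of 23 genes of gluconeogenesis and glycogen 19 were higher in liver and 2, Pck2 and Pgm2, in BMDMs (median −5.27). Pck1, the cytosolic entry enzyme of gluconeogenesis, had 0 counts in BMDMs and 6485, 5792 and 5653 CPM in liver, at least 97900-fold higher.

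Lipid families divided too. Fatty acid binding protein was 94.4% Fabp5 in BMDMs and 99.8% Fabp1 in liver, stearoyl-CoA desaturase 72.5% Scd2 in BMDMs and 99.9% Scd1 in liver, and PPAR, the receptors of fatty acids, 83.5% Ppard in BMDMs and 89.4% Ppara in liver. AMP kinase had Prkaa1 at 99.8% in BMDMs and Prkaa2 at 62.4% in liver. Carnitine palmitoyltransferase kept the same leader, with Cpt1a at 95.7% in BMDMs and 98.0% in liver. Serum amyloid A, a family of acute phase proteins, divided as well. Saa3 was the only abundant member in BMDMs, with 1900, 4846 and 10650 CPM against 24, 8.35 and 21 CPM in liver (8.35 ± 0.94, adjusted p = 0.000551). Saa1 had 0.0357, 0.0803 and 0.787 CPM in BMDMs and 10520, 476 and 2060 CPM in liver (−13.93 ± 2.16, adjusted p = 0.00193), and Saa2, whose sequence is close enough to Saa1 that their reads may be split, 11550, 135 and 2533 CPM in liver. Liver replicate 1 was far above the other livers in both.

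**Figure D4:**
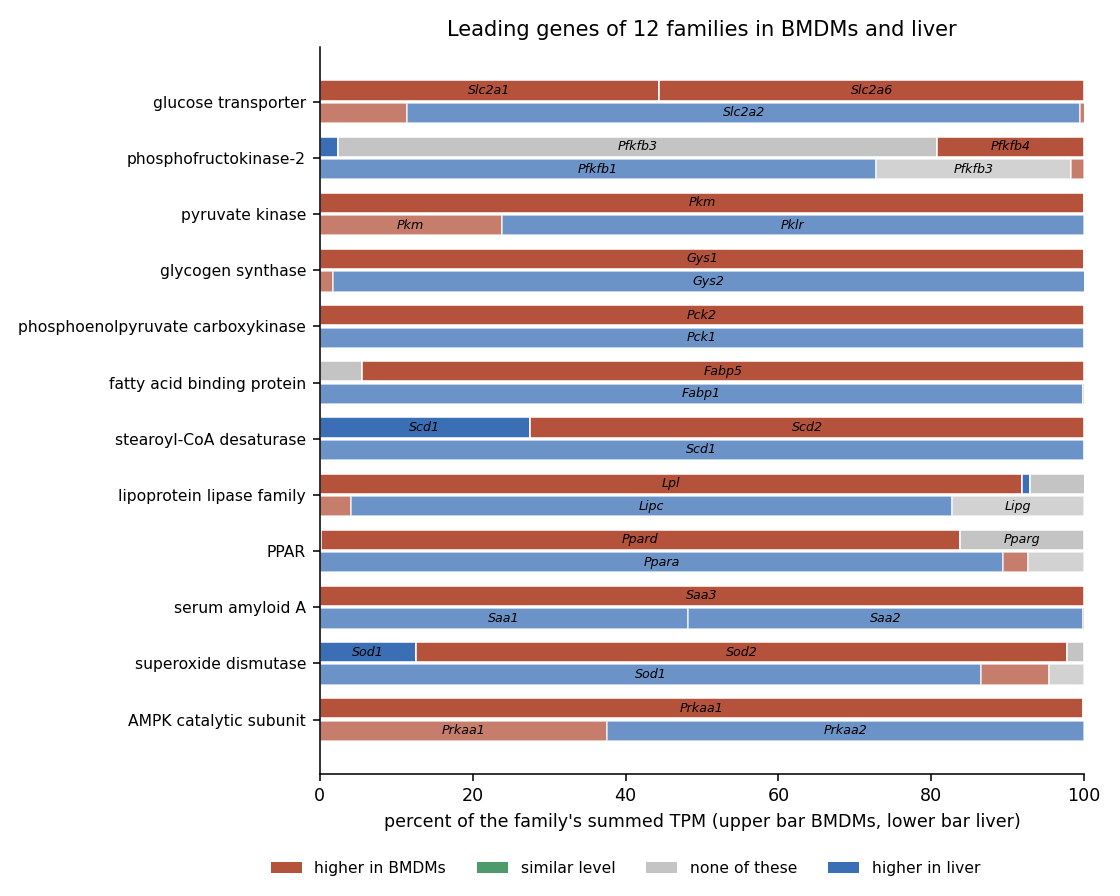
Share of each family's summed TPM held by each member in BMDMs and in liver (x axis, percent of the family, upper bar BMDMs, lower bar liver, coloured by call) for 12 of the 15 families with another leader in each tissue and members called in both directions. Pkm gives way to Pklr, Fabp5 to Fabp1 and Saa3 to Saa1 and Saa2.

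Signals and their receptors were set side by side in 17 groups. In 9 groups the called ligands and receptors were higher in opposite tissues alone, in 4 in the same tissue alone, in 3 in both arrangements, and 1 group had no called pair. In all, 9 of 26 ligands were higher in BMDMs and 16 in liver, and 18 of 32 receptors were higher in BMDMs and 7 in liver. In the wider list of 26 cytokine receptors 16 were higher in BMDMs, 5 in liver and 1 was similar (median 2.09). The 5 liver genes include the interleukin-1 and interleukin-6 receptor genes named next. With library totals alone the counts were 20, 2 and 1 (median 2.82), so the liver calls rest in part on the scaling. The interleukin-1 ligands Il1a and Il1b were higher in BMDMs (9.39 ± 1.71 and 7.05 ± 1.53, adjusted p = 0.00369 and 0.0075), whereas the receptor subunits Il1r1 and Il1rap were higher in liver (−1.45 and −3.46, adjusted p = 0.00214 and 4.1e-05). Il6 was higher in BMDMs and both of its receptor chains, Il6ra and Il6st, in liver, Il6st by little more than 2-fold (−1.15). Between the Lyz2-Cre libraries neither receptor chain was called (−0.93 and −0.66). Il6ra had 40.6, 48.8 and 10.7 CPM in BMDMs and 171, 228 and 149 CPM in liver (−2.45 ± 0.56, adjusted p = 0.00929). For Tnf, the receptor Tnfrsf1b was higher in BMDMs (4.16, adjusted p = 0.00144) and Tnfrsf1a was not called (0.59, adjusted p = 0.107). Csf1 with Csf1r, Ccl2 and Ccl7 with Ccr2, and Osm with Osmr were each higher in BMDMs on both sides, and Hp with Cd163 and Hamp with Slc40a1 in liver. The arrangement of a liver ligand and a macrophage receptor held for C3 with C3ar1 and Itgam, for Hc, which encodes complement C5, with C5ar1, for Pros1 and Gas6 with Axl, Mertk and Tyro3, which bind dying cells through these ligands, and for Igf1 with Igf1r. Gas6 turned to 0.40 between the Lyz2-Cre libraries, and its call was lost without BMDM replicate 2 (−2.06) or liver replicate 3 (−2.10). Transferrin had a receptor on each side, Tfrc in BMDMs (1.11 ± 0.24, adjusted p = 0.00741, but 1.00 and 0.98 with no call without liver replicate 2 or 3) and Tfr2 in liver (−13.49 ± 0.40, adjusted p = 2.12e-05).

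Receptors of the hormones used in the study were read next, since BMDMs had been given TSH and livers insulin. Tshr had at most 2 counts in a library, and with 3 counts a gene would stand at 0.0482–0.131 CPM, so that Tshr was not detectable at this depth in either tissue. Of 25 genes of thyroid hormone and TSH signaling 4 were higher in BMDMs, 10 in liver and 3 were similar (median −0.90). Thrb, the thyroid hormone receptor of liver, had 0.357, 0.466 and 0.272 CPM against 38.1, 43.3 and 30.6 CPM (−6.64 ± 0.29, adjusted p = 3.08e-05), and Thra, the other receptor, 6.69, 9.34 and 7.85 CPM against 14.8, 13.4 and 16.6 CPM (−0.90 ± 0.20, adjusted p = 0.00705), a fold under 2. The deiodinases, which activate or remove thyroid hormone, divided between the tissues. Dio1 had 0 counts in BMDMs and 182, 158 and 141 CPM in liver, at least 2630-fold higher, and Dio2 5.48, 1.56 and 1.49 CPM in BMDMs and 0 counts in liver, at least 23-fold higher, or 12.3-fold without BMDM replicate 1.

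Of 33 insulin signaling genes 11 were higher in BMDMs, 7 in liver and 8 were similar (median −0.17). Insr, the insulin receptor, had 30.0, 36.9 and 16.3 CPM against 194, 166 and 185 CPM (−2.71 ± 0.33, adjusted p = 0.000705). Irs1, the adaptor next to it, had 0.339, 0.594 and 0.299 CPM against 30.9, 16.8 and 35.7 CPM (−6.04 ± 0.45, adjusted p = 0.000117), while Irs2 was not called, with 21, 31.6 and 94.6 CPM against 20.3, 14.1 and 34.0 CPM (1.11 ± 0.62, adjusted p = 0.165). Below the receptor the kinase Akt1 was higher in BMDMs, with 186, 167 and 183 CPM against 72.8, 80.02 and 81.6 CPM (1.20 ± 0.15, adjusted p = 0.000849). Foxo1, a transcription factor that insulin restrains, was higher in liver, with 8.78, 11.3 and 7.74 CPM against 71.5, 87.3 and 79.9 CPM (−3.10 ± 0.20, adjusted p = 5.96e-05). Socs3, a feedback inhibitor of cytokine and insulin receptors, had 146, 76.3 and 877 CPM against 52.5, 21.7 and 50.1 CPM (3.15 ± 0.99, adjusted p = 0.0308). It lost its call without any 1 of the livers (2.83–3.35) and between the Lyz2-Cre libraries (1.35).

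Markers of cells other than hepatocytes and cultured macrophages were read in both tissues. Of 14 Kupffer cell markers 8 were higher in liver and 0 in BMDMs (median −3.17). Clec4f, a lectin of Kupffer cells, had 0 counts in BMDMs and 117, 205 and 194 CPM in liver, at least 2820-fold higher. The other 6 markers were called in neither tissue, among them Marco and Timd4, which other macrophages also use. Timd4 read 7.39, 2.02 and 13.5 CPM against 6.59, 23.2 and 13.9 CPM. The sinusoidal endothelial markers were higher in liver in 11 of 14 (median −5.70). Their summed share of counts was nevertheless higher in BMDMs (0.0786–0.145% against 0.00814–0.0393%), and Fcgr2b, an Fc receptor that macrophages share with this endothelium, was the 1 member higher in BMDMs, with 533, 505 and 1359 CPM. Of 14 stellate cell and fibroblast markers 5 were higher in each tissue. Lrat and Reln, markers of stellate cells, had 0 counts in BMDMs, but Col1a1, the chain of fibrillar collagen, had 277, 783 and 258 CPM in BMDMs and 0.349, 14.3 and 5.51 CPM in liver (6.02 ± 1.32, adjusted p = 0.00764). Col1a2, Col3a1, Acta2 and Des were higher in BMDMs as well, and the list took 0.0947–0.325% of BMDM counts, most in replicate 2. Without BMDM replicate 1, BMDM replicate 2 or liver replicate 3, 3 of the list were higher in BMDMs. The part of such cells in the other BMDM results was not tested.

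Markers of blood cells differed by cell type. All 5 tested red cell markers were higher in liver. Hba-a1, a globin whose copies share reads, had 0.0536, 0.112 and 0.0543 CPM in BMDMs and 40.0, 138 and 96.2 CPM in liver. Neutrophil markers were higher in liver in 6 of 10 and in BMDMs in 2 (Csf3r and Mmp8), but took 0.0312–0.0593% of BMDM counts against 0.00173–0.0103% of liver counts. Lymphocyte markers were higher in liver in 2 of 11 and in BMDMs in 1 (median 1.31), and their shares overlapped (0.00163–0.00513% against 0.00128–0.00602%). The part of such cells in the other results was not tested. Dendritic cell markers were higher in liver in 3 of 8 and in BMDMs in 2, bile duct markers in 6 and 1 of 9, and 1 of 3 muscle and adipocyte markers was higher in liver. In liver replicate 1, Col1a1, Lrat, Reln, Clec4f and Timd4 were each the lowest of the 3 livers, and the acute phase genes Saa1, Hp and Lbp were the highest. Their part in the results that name this library was not tested.

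The spread within a tissue followed different genes in the 2 tissues. The common biological coefficient of variation was 0.404 in BMDMs and 0.318 in liver. More than 4-fold between libraries was spanned by 631 detected genes (5.49%) in BMDMs and 427 (3.50%) in liver. The widest in BMDMs were Csf3, Slamf1, Il12b, Htra4, Ccl4, Tnfsf15, Tnf, Il27, Il10 and Gm45717, most of them cytokines and their relatives. Il12b, the shared chain of interleukins that drive T cells, had 68.5, 1.35 and 662 CPM. Il10, an anti-inflammatory cytokine, had 1.23, 0.241 and 71.6 CPM. In each of these but Gm45717, replicate 3 was the highest and replicate 2 the lowest. The widest in liver were Saa1, Saa2, Orm2 and Orm3, acute phase genes, Moxd1, Itgax and Pde2a, and Gm20716, CT010467.1 and 1 gene without a symbol. Orm2, an orosomucoid, had 1623, 33.9 and 218 CPM, and Itgax, the integrin CD11c, 1.35, 41.9 and 3.67 CPM. The first is highest in replicate 1 and the second in replicate 2.

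**Figure D5:**
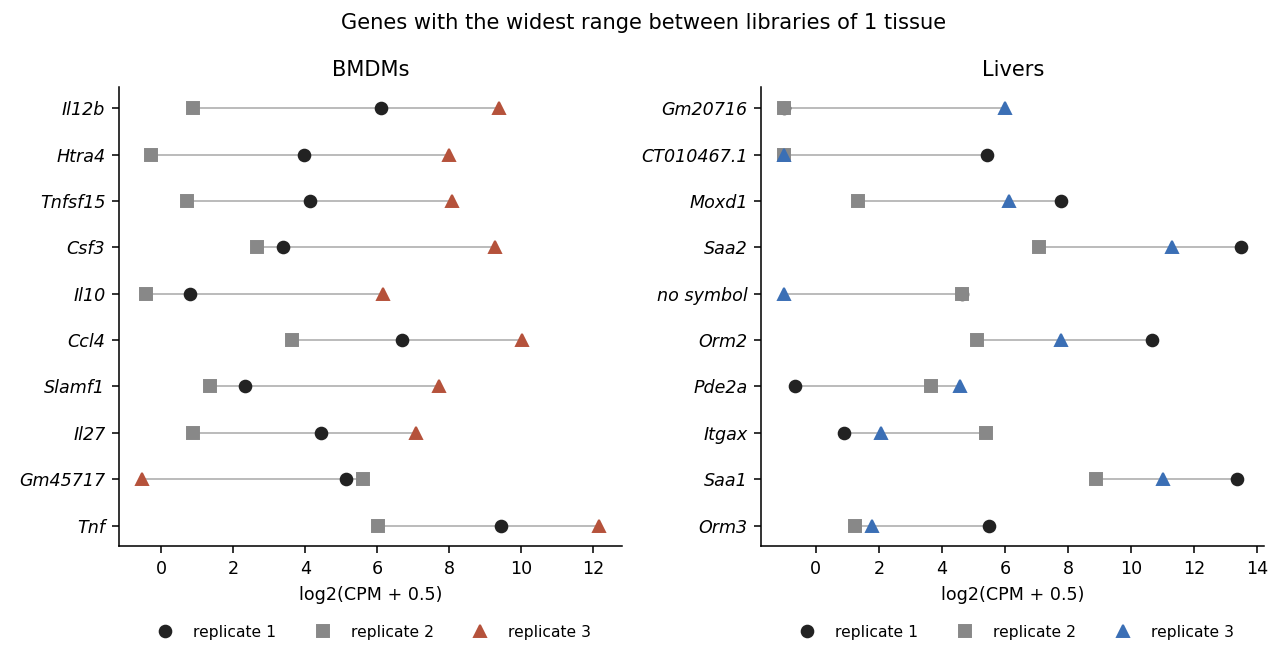
Levels in each library (x axis, CPM + 0.5 on a log2 scale) of the genes with the widest range between BMDM libraries and between livers, 1 point per library. BMDM replicate 3 is the highest in the cytokine genes, and liver replicate 1 is the highest in Saa1, Saa2, Orm2 and Orm3.

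The same classes were then read in the Lyz2-Cre libraries of both tissues, which share no library with the comparison above. Of the genes higher in BMDMs and tested there, 3169 of 3666 (86.4%) were called the same, as were 4004 of 4464 (89.7%) of those higher in liver and 2455 of 2902 (84.6%) of the similar ones. The opposite call was made for 2 genes, named here after their values were seen: Gpx3, a plasma glutathione peroxidase, and Zfp941, both higher in liver here (−1.22 and −1.58) and in BMDMs there (1.33 and 1.20).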

How the data were processed

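RNA of 12 samples was sequenced by the study as strand-specific TruSeq libraries on a NovaSeq instrument. The authors trimmed reads with Skewer, checked them with FastQC 0.11.2 and deposited read counts per gene, not normalized. The submitters' notes name STAR, StringTie and mm10 without a role, and the counting program is not given in the sources used here. The labels speak of thymic RNA in the extraction text of every sample, which the tissue labels do not.

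Counts of 6 libraries were tested with edgeR 4.0.16 in R 4.3.3 (robust quasi-likelihood, TMM factors, filterByExpr) with Benjamini–Hochberg adjustment over the 15931 genes tested. Gene lengths and positions came from GENCODE M21 (GRCm38), which held 55154 of the 55335 rows. TMM assumes that most genes do not differ. TPM were made from exon lengths. Intervals were 95%.

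The members of the comparison, the 52 gene lists, the families and the ligand lists were chosen with earlier results of these data known. Genes were named by rule: the 4 markers, the 10 highest by TPM per tissue, the 10 largest differences per direction with at least 50 CPM, the 10 most equal with at least 100 CPM, the 10 widest ranges per tissue with at least 10 CPM on average, Tshr, and members that illustrate a list. Some genes of the lists and 3 of the families are not reported by name here. Counts of 15500 genes were simulated for BMDMs against liver with 200 genes changed, all drawn from a middle range of counts. There edgeR recovered 60% of 4-fold and 98% of 16-fold changes, with 4.82% of calls unchanged genes. Of the calls of DESeq2 33.1% were unchanged genes. On 15409 genes simulated with the measured tissue means edgeR recovered 95.4% of folds from 4 to under 16. Calls with a fold under 1.41 made up 0.717% with edgeR and 0.735% with DESeq2.

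Motif shares per class of gene are not given, because RefSeq promoters matched 70.5% of the tested genes, under the 80% set as a minimum, which makes that check void. Alternatives were other scalings, filters and folds, DESeq2 1.42.0, other sets of livers or libraries, a replicate block and each library left out. By the ages given, the BMDMs and livers came from different mice. Tables were joined in pandas 2.3.3 (numpy 2.4.6) under python 3.11.15 and plotted by matplotlib 3.10.9.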

Additional observations from a re-analysis of the deposited data

How the results depend on the processing

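Library totals alone gave 6369 genes higher in BMDMs, 3009 in liver and 1188 similar. A fold of 4 left 2516 higher in BMDMs, an interval within ±0.5 left 411 similar, and a minimum of 5 CPM left 23 genes in BMDMs alone. With 1 library left out at a time, 3432–3835 genes were higher in BMDMs, 4334–4758 in liver and 2204–3278 similar, and 681–732 were found in liver alone and 123–194 in BMDMs alone, 194 without liver replicate 2. Leaving out BMDM replicate 3 and liver replicate 1 together, an alternative added after seeing the data, gave 3570, 4405 and 2955. Deviations of same-numbered libraries correlated at −0.068, −0.0426 and −0.0133, which cannot show whether samples were paired. By the ages given, no mouse gave both a BMDM library and a liver. The replicate block gave 3382, 4316 and 2363. The livers labelled Lyz2-Cre gave 4134, 4913 and 2985, and DESeq2 4002, 4652 and 3193. Of 935 medians of lists under the alternatives, 18 turned in sign. In 6 lists with a median within ±1, 14 did so: with library totals alone, endoplasmic reticulum chaperones (0.07), insulin signaling (0.64), proteasome (0.65) and stellate cell markers (0.60), the last also under the block (0.11) and without liver replicate 2 (0.44), the proteasome without BMDM replicate 2 (0.01), RNA polymerase II with the Lyz2-Cre livers or libraries (−0.04 and −0.08), and translation factors in 5 alternatives (−0.13 to −0.01). In 2 lists with a larger median, 4 did: lymphocyte markers (1.31) to −0.07 without liver replicate 1, with 1.24 the highest median with 1 library left out, and to −0.03 without it and BMDM replicate 3, and dendritic cell markers (−1.06) to 0.12 at a mean of at least 50 counts and 0.27 in the Lyz2-Cre libraries of both tissues. In those libraries the medians of 7 lists came closer to 0 by more than 1.5 times, among them MHC class I presentation (1.03) and glycolysis (0.52). Under the block 13 interferon-stimulated genes were called. In the Lyz2-Cre libraries 3 named genes turned, Abca1 (−0.08), H2-T22 (−0.04) and Gas6 (0.40). Except for the alternatives' own thresholds, the cause was not tested. With 3 libraries per tissue, differences near 2-fold in genes with a wide spread between cultures were the least certain.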
